A study of Mus musculus with 3 samples.

Results

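The smooth muscle contractile genes Acta1, Acta2, Actg2, Tagln, Cnn1, Myh11, Myl9, Des, Lmod1 and Pln were followed through single cells of mouse bladder assembloids and adult mouse bladder. They were chosen by gene symbol among the mouse features, and 10 of 10 were found among 31053 mouse genes in each of the 3 libraries. The first library held a pool of 3 assembloids after 1 day of reconstitution and the second a pool of 3 assembloids after 7 days. The third held a pool of 8 bladders from wild-type C57BL/6 mice aged 8 to 9 weeks. Assembloids are tissue-like constructs in which epithelial and stromal cells are rebuilt together in culture. No source used here names the strain or the source cells of the assembloids. Each group was 1 library, so no test between groups was possible, and all intervals given cover counting error only.

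A smooth muscle cell contracts when calcium, through calmodulin, activates myosin light chain kinase, and phosphorylated myosin then pulls on actin filaments. Acta2 and Tagln are switched on early in muscle differentiation and also in activated fibroblasts, whereas Myh11, the smooth muscle myosin heavy chain, is held to be a late and more specific marker. In many of these genes serum response factor binds a CArG box, and its partner myocardin drives the mature programme. Phospholamban, encoded by Pln, restrains the calcium pump that refills the internal store.

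After filtering, 8239 1-day, 8146 7-day and 6753 bladder cells were used, of which 5385, 4711 and 2501 lay in stromal or mural populations (mural is used here for muscle cells and pericytes). The libraries had 135955678, 120301672 and 93560608 UMIs (unique molecular identifiers, 1 per captured transcript) and a median of 14952, 9437.5 and 7543 mouse UMIs per cell in the same order. The 1-day and 7-day libraries shared 114 cell barcodes, the 1-day and bladder libraries 21, and the 7-day and bladder libraries 30. A barcode shared among kept cells was used only in the library where it was deeper. Of the 7-day cells used, 4348 had almost only 1-day cells among their nearest cells of the other libraries, 229 lay between, and 3569 (43.8%) had almost only bladder cells, with a median of 3352 UMIs against 19924 on the assembloid side. Of these bladder-side cells, 1311 were stromal or mural. Values of the 7-day library that rest on them are given with and without them, or named as such.

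Cells were clustered without the 10 genes, and each cluster was named by other genes. In bladder, 71 smooth muscle-like cells carried 8 of 10 muscle markers as enriched genes, among them Synpo2, Synm, Pgm5 and Pcp4, and were led by Tnnt2 and Synm. Their pericyte markers summed to 256 CPM (counts per 1000000 mouse UMIs), with Vtn and Higd1b at 0, against 6876 CPM in the 434 pericyte-like cells of bladder. A further bladder population of 548 cells held 5 muscle and 5 pericyte markers, a tie, and is called the Rrad-Pcp4l1 cells after its leading genes. No 1-day cell lay in the smooth muscle-like cluster, and the 32 cells of the 7-day library in it, 29 of them on the bladder side, are left out because they were under 50. The candidate stromal subsets there were the Crabp1 cells (1055 at 1 day and 657 at 7 days), the Spp1-Gzme cells (855 and 496), the Tnfsf15-Aldh1a3 cells (1865 and 406), the Mmp3-Igf1 cells (232 and 978) and cycling stromal cells (1333 and 690), each called by its leading or marker genes. Muscle markers other than the 10 genes summed to 110.0 CPM in 1-day and 109 CPM in 7-day Crabp1 cells, against 9859 CPM in bladder smooth muscle-like cells, and Chrm2 was at 0 in both assembloid sets. Their pericyte markers summed to 204 CPM and 191 CPM, with Vtn and Higd1b at 0. The Crabp1 cells lay in 2 clusters, of which the shallower (270 cells at 1 day and 186 at 7 days, median 5363 and 5573.5 UMIs) had Acta2 at 14800 CPM and 15293 CPM and the deeper at 9704.5 CPM and 9689 CPM. The cycling stromal cells also lay in 2 clusters, led by Ube2c and by Birc5. A pericyte-like cluster led by Higd1b held 76 cells at 7 days and 45 at 1 day. The 1-day value is not given because that set had under 50 cells. Its 7-day Rgs5, Notch3 and Vtn stood at 236, 169 and 5.5 CPM, against 3074, 641 and 346 CPM in bladder pericyte-like cells. The other pericyte markers were lower too, Higd1b at 161 against 190 CPM, except Cspg4 at 99.5 against 85.0 CPM. Of muscle markers, Mylk (1240 against 734 CPM), Kcnmb1, Smtn, Synm and Ldb3 were higher, and Synpo2 and Pgm5 lower.

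The CArG box, the binding sequence of serum response factor, was searched on both strands in RefSeq promoter windows of GRCm38.p6 (250 bases before to 50 after each start). Only its strict form, CCWWWWWWGG with W for A or T, counted as a box. Windows were found for 7 of 10 members, and 2 of these 7, Myl9 and Acta1, held a box; over all 32851 windows the share was 1.63%. Both stretches are shown 5′ to 3′ on the gene's strand with the box in capitals, Myl9 from chr2:156775258-156775357 (plus strand, box at bases -161 to -152 from RefSeq's start) and Acta1 from chr8:123894794-123894893 (minus strand, box at -73 to -64).
Myl9: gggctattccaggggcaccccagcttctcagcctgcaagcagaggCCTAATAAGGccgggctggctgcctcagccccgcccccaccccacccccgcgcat
Acta1: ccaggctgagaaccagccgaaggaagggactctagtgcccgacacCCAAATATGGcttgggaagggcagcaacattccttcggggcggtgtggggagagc
A match describes letters in this window only. The windows of Des, Lmod1, Cnn1, Pln and Acta2 held no strict box, and boxes with a G or C in the core were not searched.

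Acta2 was within 2-fold of bladder smooth muscle-like cells in Crabp1 cells at both ages and in Tnfsf15-Aldh1a3 and Mmp3-Igf1 cells at 1 day. It was lower in Spp1-Gzme cells at both ages and in Tnfsf15-Aldh1a3 and Mmp3-Igf1 cells at 7 days, at log2 ratios of -1.04 to -1.40. Acta2 (ENSMUSG00000035783, chromosome 19, 34241090 to 34255590 in mm10, minus strand), smooth muscle alpha-actin, stood at 10166 CPM in 1-day and 10096 CPM in 7-day Crabp1 cells, against 17167 CPM in bladder smooth muscle-like cells. It was 16341 CPM in bladder Rrad-Pcp4l1 cells and 4805 CPM in bladder pericyte-like cells. The log2 ratio of Crabp1 cells over bladder smooth muscle-like cells was -0.76 [-0.78 to -0.73] at 1 day and -0.77 at 7 days, so Acta2 was within 2-fold of it. With cells gated one by one by marker UMIs in place of clusters, the 1-day value was -1.14, past 2-fold. The gates took 646 1-day Crabp1 cells and 320 bladder muscle cells, so the cells compared differed from those of the clusters. In the other assembloid subsets Acta2 lay between 8309 CPM (cycling stromal) and 9900 CPM (Tnfsf15-Aldh1a3) at 1 day, and between 6493 CPM (Mmp3-Igf1) and 8131 CPM (Spp1-Gzme) at 7 days. Bladder fibroblast-like cells stood at 74.1 CPM, far under every assembloid stromal subset. The highest level in any population was that of the 7-day pericyte-like cells of the assembloid cluster, at 21339 CPM.

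Acta2 also appeared in cells that should lack it, which sets the background. Urothelial cells, epithelium of the bladder lining, stood at 362 CPM at 1 day, 116 CPM at 7 days and 6.0 CPM in bladder. Most 7-day urothelial cells lay on the bladder side (807 of 808, 421 of 422 and 247 of 255 in the clusters shared with bladder). The 7-day urothelial values rest largely on these cells, and values without them are not given. With each cell thinned to 2500 UMIs, 48.4% of 1-day, 21.0% of 7-day and 1.10% of bladder urothelial cells had an Acta2 UMI, against 99.0% of 1-day and 99.5% of 7-day Crabp1 cells. Unthinned, the urothelial shares were 70.7%, 53.1% and 11.0% at median depths of 4831, 8335 and 21332.5 UMIs, and the Crabp1 shares 99.4% and 98.9% at 17161 and 26713 UMIs. An Acta2 share in an assembloid therefore carries this background, and the levels of Crabp1 cells lay far above it.

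Tagln (ENSMUSG00000032085, chromosome 9, 45929619 to 45936058, minus strand), which encodes the actin-binding protein transgelin, followed Acta2 most closely of all members, with a Pearson r of 0.987 over 31 populations. It stood at 8108 CPM in 1-day and 7941 CPM in 7-day Crabp1 cells, against 20624 CPM in bladder smooth muscle-like cells, log2 ratios of -1.35 [-1.37 to -1.32] and -1.38. The 1-day value was within 2-fold with coarser clusters (-0.91) and with doublets kept (-0.96). The bladder Rrad-Pcp4l1 cells had 13956 CPM and the bladder pericyte-like cells 4577 CPM. Both early genes were therefore higher in Crabp1 cells than in bladder pericyte-like cells.

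In Crabp1 cells the other actin genes stood farther under bladder smooth muscle-like cells than Acta2 did, except Acta1 with cells gated one by one. Actg2 (ENSMUSG00000059430, chromosome 6, 83512905 to 83536265, minus strand), the enteric or visceral gamma-actin, was 714 CPM in 1-day and 662 CPM in 7-day Crabp1 cells, against 5339 CPM in bladder smooth muscle-like cells, with log2 ratios of -2.90 [-2.96 to -2.85] and -3.01. Actg2 was 616 CPM in the deeper and 1699 CPM in the shallower Crabp1 cluster at 1 day, and 636 and 993 CPM at 7 days. Among the assembloid stromal subsets it was highest in the Mmp3-Igf1 cells, at 3506 CPM at 1 day and 1862 CPM at 7 days. The 1-day Mmp3-Igf1 value was within 2-fold of bladder smooth muscle-like cells (log2 -0.61). The 7-day pericyte-like cells of the assembloid cluster stood higher, at 2442 CPM, than the 7-day Mmp3-Igf1 cells. Actg2 was low in the other bladder mural cells, at 370.0 CPM in the Rrad-Pcp4l1 cells and 226 CPM in the pericyte-like cells. The order of assembloid subsets for Actg2, with Mmp3-Igf1 and Tnfsf15-Aldh1a3 cells on top, was unlike that for Acta2, which was highest in Crabp1 cells. At 1 day the deeper Crabp1 cluster alone had Acta2 at 9704 CPM, under the Tnfsf15-Aldh1a3 cells at 9900 CPM.

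Acta1 (ENSMUSG00000031972, chromosome 8, 123891769 to 123894751, minus strand), named for skeletal muscle alpha-actin, was highest in bladder smooth muscle-like cells and in Crabp1 cells. It reached 248 CPM in 1-day and 183 CPM in 7-day Crabp1 cells, against 794 CPM in bladder smooth muscle-like cells, 11.3 CPM in the Rrad-Pcp4l1 cells and 0 UMIs in the pericyte-like cells of bladder. Its log2 ratio over bladder smooth muscle-like cells was -1.68 [-1.81 to -1.55] at 1 day and -2.12 at 7 days, and over the Rrad-Pcp4l1 cells it was 4.43 [3.95 to 5.01] and 3.99. With cells gated one by one, the 1-day value over the 320 gated bladder muscle cells was -0.66, within 2-fold. In the other 4 assembloid stromal subsets Acta1 lay between 16.3 and 52.0 CPM at 1 day and between 2.9 and 41.4 CPM at 7 days, under the Crabp1 cells of the same library. Of 6 skeletal muscle markers in bladder smooth muscle-like cells, Ckm (muscle creatine kinase) stood at 386 CPM, 4 others at 1.51 to 4.52 CPM and Myh4 at 0, and the cardiac actin gene Actc1 stood at 48.2 CPM. In 1-day Crabp1 cells Ckm was at 0 UMIs and Actc1 at 2 UMIs.

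The regulators of the thin filament lay between the extremes. Cnn1 (ENSMUSG00000001349, chromosome 9, 22099216 to 22109630, plus strand), encoding calponin, an inhibitor of the actin-activated myosin ATPase, stood at 779 CPM in 1-day and 787 CPM in 7-day Crabp1 cells, against 3986 CPM in bladder smooth muscle-like cells and 585 CPM in the Rrad-Pcp4l1 cells. Lmod1 (ENSMUSG00000048096, chromosome 1, 135324807 to 135368065, plus strand), encoding leiomodin, which nucleates actin filaments, was 237 CPM and 235 CPM in 1-day and 7-day Crabp1 cells, against 978 CPM in bladder smooth muscle-like cells and 852 CPM in the Rrad-Pcp4l1 cells. At 1 day Lmod1 was 252 CPM in the deeper Crabp1 cluster and 86.1 CPM in the shallower. The log2 ratios of 1-day Crabp1 over bladder smooth muscle-like cells were -2.36 [-2.42 to -2.30] for Cnn1 and -2.04 [-2.16 to -1.92] for Lmod1. Against the Rrad-Pcp4l1 cells they parted, since Cnn1 was within 2-fold (0.41) and Lmod1 was lower (-1.84).

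The 2 myosin genes differed widely. Myl9 (ENSMUSG00000067818, chromosome 2, 156775420 to 156781658, plus strand), the regulatory light chain that myosin light chain kinase phosphorylates, stood at 1071 CPM in 1-day and 1019.6 CPM in 7-day Crabp1 cells, against 5362 CPM in bladder smooth muscle-like cells, 5670.2 CPM in the Rrad-Pcp4l1 cells and 1683 CPM in the pericyte-like cells. Myh11 (ENSMUSG00000018830, chromosome 16, 14194535 to 14291372, minus strand) stood at 36.4 CPM in 1-day and 42.8 CPM in 7-day Crabp1 cells, against 7060.4 CPM in bladder smooth muscle-like cells, 3409.5 CPM in the Rrad-Pcp4l1 cells and 1108 CPM in the pericyte-like cells. The Myh11 ratio over bladder smooth muscle-like cells was -7.60 [-7.72 to -7.48] on the log2 scale at 1 day and -7.36 at 7 days, whereas that of Myl9 was -2.32 and -2.39. Myh11 was lowest in the Spp1-Gzme cells, at 14.5 CPM at 1 day and 15.9 CPM at 7 days. It was highest among the 5 stromal subsets in the Mmp3-Igf1 cells, at 239 CPM at 1 day and 109 CPM at 7 days. The 7-day pericyte-like cells of the assembloid cluster reached 946 CPM, near the bladder pericyte-like cells, with a log2 ratio of -0.23 [-0.35 to -0.11].

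Des (ENSMUSG00000026208, chromosome 1, 75360329 to 75368579, plus strand), the muscle intermediate filament desmin, stood at 59.0 CPM in 1-day and 60.7 CPM in 7-day Crabp1 cells, against 6223 CPM in bladder smooth muscle-like cells. Its log2 ratio there was -6.72 [-6.82 to -6.63] at 1 day and -6.68 at 7 days. Unlike Myh11, it was lowest in the Mmp3-Igf1 cells, at 9.4 CPM at 1 day and 11.1 CPM at 7 days, and it was 107 CPM in the 1-day Spp1-Gzme cells. Among 1-day populations the highest Des level was that of the mesothelial cells, the outer lining, at 627 CPM, where Acta2 stood at 4522 CPM and Myh11 at 1.6 CPM.

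Pln (ENSMUSG00000038583, chromosome 10, 53337667 to 53345987, plus strand) was at or near 0 in the 5 assembloid stromal subsets and differed between the bladder mural populations. It was at 0 UMIs in the Crabp1 cells of 1-day and of 7-day assembloids, against 39.2 CPM in bladder smooth muscle-like cells, 704 CPM in the Rrad-Pcp4l1 cells and 19.7 CPM in the pericyte-like cells. Taken against a floor of 3 counts over the population, Pln was at least 243-fold lower in 1-day Crabp1 cells than in bladder smooth muscle-like cells, and at least 4366-fold lower than in the Rrad-Pcp4l1 cells. Over all 5 stromal subsets of the 1-day library 1 Pln UMI was found, in the cycling stromal cells, and the most in any of the 5 7-day subsets was 13 UMIs in 978 Mmp3-Igf1 cells (0.69 CPM). The 307 Rrad-Pcp4l1 cells of the 7-day library, 290 of them on the bladder side, had 658 CPM. Within bladder, Pln was lower in smooth muscle-like than in Rrad-Pcp4l1 cells, with a log2 ratio of -4.14 [-4.79 to -3.61], while Actg2, Acta1, Cnn1, Des and Myh11 were higher, at 3.85, 6.11, 2.77, 2.39 and 1.05. Pln was thus the single member called lower among 5 called higher in that comparison, and 14.6% of genes tested were called lower and 11.7% higher. Of these, Acta1 reached 20 CPM in the smooth muscle-like cells only, so its call supports no direction.

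**Figure D1:**
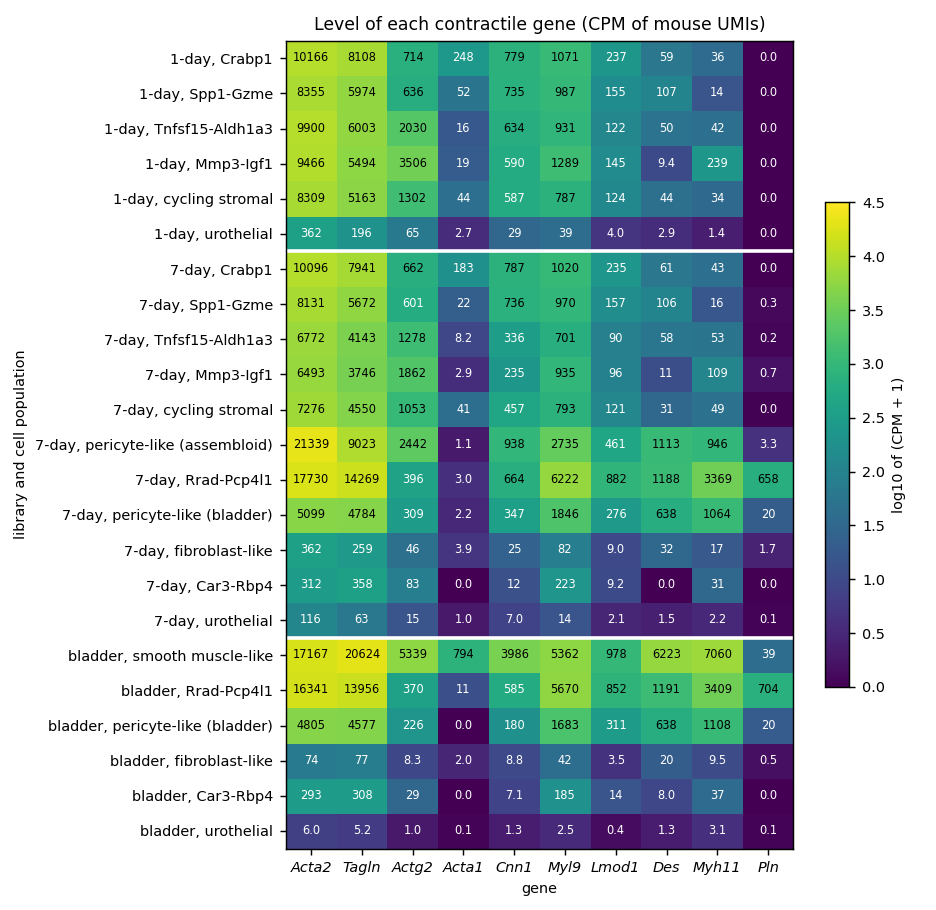
Level of each gene (columns, early genes at the left and late ones at the right) in each population (rows, 1-day assembloid on top, then 7-day, then bladder), as CPM printed in each cell and coloured by log10 of CPM plus 1. Acta2 and Tagln are at 3746 CPM or more in all assembloid stromal subsets, whereas Pln reaches over 100 CPM in the Rrad-Pcp4l1 cells alone.

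The early genes were then set against the late ones, as UMIs of Acta2 and Tagln per UMI of Myh11 and Pln. A UMI counts 1 transcript from its 3′ end and is not scaled by length, so the ratio is compared between populations and is not read as a proportion of proteins. In Crabp1 cells the ratio was 502 [466 to 542] at 1 day and 421 [391 to 454] at 7 days. In bladder it was 5.32 [5.16 to 5.49] in smooth muscle-like cells, 7.37 [7.22 to 7.51] in Rrad-Pcp4l1 cells and 8.32 [7.94 to 8.72] in pericyte-like cells. The 3 bladder mural populations thus lay within 2-fold of each other, while their counting intervals did not overlap.

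The assembloid subsets spread widely in this ratio. Spp1-Gzme cells were highest, at 854 at 7 days and 989 at 1 day, and their intervals overlapped. Tnfsf15-Aldh1a3 cells stood at 205 at 7 days and 374 at 1 day. Cycling stromal cells stood at 241 at 7 days and 394 at 1 day, and both subsets were lower at 7 days. The cycling cells pooled unlike clusters, with 1-day Myh11 at 53.0 CPM in the Ube2c-led and 12.2 CPM in the Birc5-led one. Mmp3-Igf1 cells were lowest of the 5, at 93.3 [89.4 to 97.5] at 7 days and 62.5 [58.3 to 67.1] at 1 day, and here the 7-day value was higher. The 7-day pericyte-like cells of the assembloid cluster, none of which lay on the bladder side, stood at 32.0 [29.9 to 34.3]. Bladder fibroblast-like cells had a ratio of 15.1 [11.9 to 19.3] from 74 late UMIs.

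**Figure D2:**
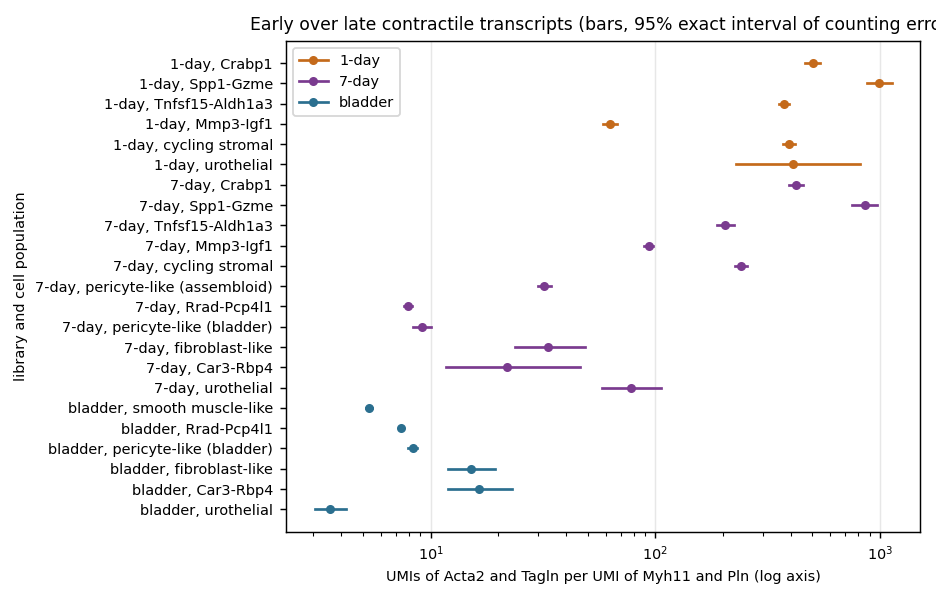
UMIs of Acta2 and Tagln per UMI of Myh11 and Pln on a log axis, 1 row per population and library, with 95% exact intervals of counting error. The bladder mural populations lie under 10 and the Crabp1 cells above 400.

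In Crabp1 cells the late genes were rare among cells that held an early transcript. After thinning to 2500 UMIs, which left out 55 of 1055 1-day and 61 of 657 7-day Crabp1 cells and 2 of 71 bladder smooth muscle-like cells, 99.7% of the Crabp1 cells of either age had an Acta2 or Tagln UMI. Of these, 6.12% [4.71 to 7.79] at 1 day and 6.57% [4.71 to 8.87] at 7 days also had a Myh11 UMI, against 100% [94.8 to 100] of 69 bladder smooth muscle-like cells. The shares were 98.4% of Rrad-Pcp4l1 and 84.4% of pericyte-like cells in bladder and 86.7% [76.8 to 93.4] of the 75 7-day pericyte-like cells of the assembloid cluster. Over all cells without thinning, a Myh11 UMI was found in 15.8% of 1-day and 18.7% of 7-day Crabp1 cells, against 100% of bladder smooth muscle-like cells. Over all thinned cells the Myh11 share was 6.10% of 1-day and 6.54% of 7-day Crabp1 cells. In urothelial cells it was 0.294% at 1 day, 0.294% at 7 days (mostly bladder-side cells) and 0.605% in bladder, under that of the Crabp1 cells.

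Per thinned cell, Crabp1 cells had a median of 23.5 Acta2 UMIs at 1 day and 22.0 at 7 days, against 42.0 in bladder smooth muscle-like cells. The median of Myh11 was 0 in both assembloid sets, where the highest cell had 5 UMIs, against 14.0 in bladder smooth muscle-like cells, with a lowest decile of 5.0. The highest Crabp1 cells thus met the lower end of the bladder smooth muscle-like cells for Myh11. The Mmp3-Igf1 cells had the largest Myh11 share among the 5 stromal subsets, 25.4% [19.9 to 31.6] at 1 day and 14.7% [12.5 to 17.1] at 7 days.

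Pln was found in 0 of 997 1-day and 0 of 594 7-day Crabp1 cells with an early transcript, which at 3 cells allows shares of up to 0.301% and 0.505%, with exact upper limits of 0.369% and 0.619%. This limits cells with a Pln UMI at the thinned depth, not cells that express Pln. In bladder it was found in 10.1% [4.18 to 19.8] of smooth muscle-like, 67.9% [63.7 to 72.0] of Rrad-Pcp4l1 and 2.51% [1.16 to 4.72] of pericyte-like cells. A Pln share therefore does not serve as a mark of all bladder mural cells at this depth.

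**Figure D3:**
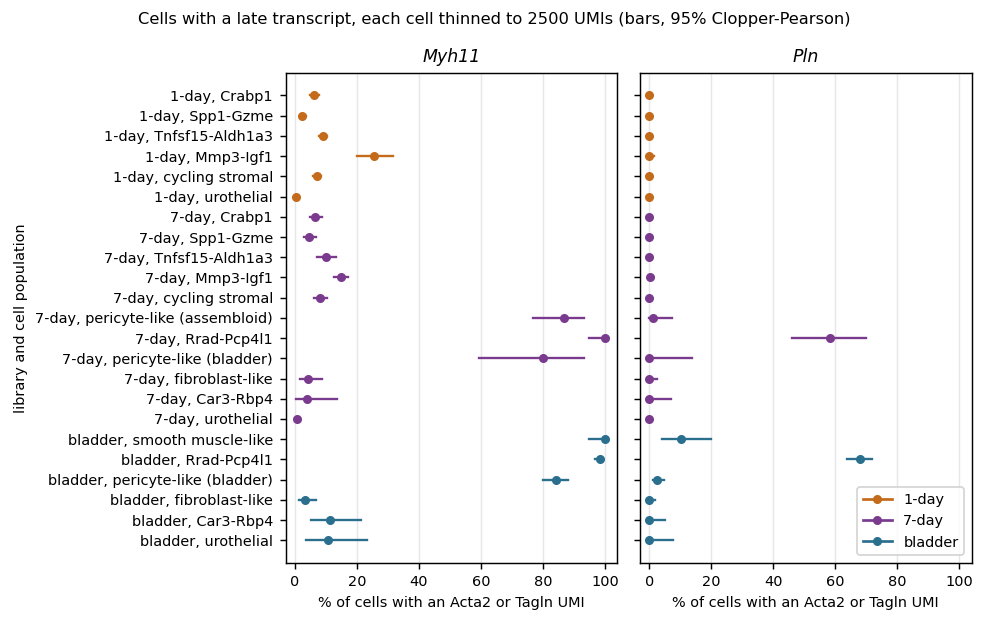
Share of cells with a Myh11 UMI (left) and a Pln UMI (right) among cells with an Acta2 or Tagln UMI, in percent, each cell thinned to 2500 UMIs, with 95% Clopper-Pearson intervals. Myh11 reaches 80% to 100% in mural populations and at most 25.4% in the assembloid stromal subsets, and Pln is frequent in the Rrad-Pcp4l1 cells alone.

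Counted over members, a gene was called higher or lower where it differed by at least 2-fold and reached 20 CPM in the higher population. Crabp1 cells had 9 of 10 members lower than bladder smooth muscle-like cells at 1 day and 9 of 10 at 7 days, where 21.8% and 21.2% of all genes tested were called lower, and Acta2 was the member within 2-fold. Pln passed the minimum through the bladder cells only and could only be called lower, so its call supports no direction. The median log2 ratio of the members was -2.34 at 1 day and -2.37 at 7 days, against 0.09 and 0.10 over all genes tested. Both comparisons share the same bladder cells. Spp1-Gzme, Tnfsf15-Aldh1a3 and Mmp3-Igf1 cells had 10, 9 and 8 of 10 members lower than bladder smooth muscle-like cells at 1 day (21.5%, 21.6% and 17.8% of genes tested) and 10 of 10 each at 7 days (21.3%, 20.4% and 17.7%). At both ages some members passed the minimum through the bladder cells only. These were Pln in each subset, Myh11 in Spp1-Gzme, Acta1 in Tnfsf15-Aldh1a3, and Acta1 and Des in Mmp3-Igf1 cells. They could only be called lower, so their calls support no direction.

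Against the bladder Rrad-Pcp4l1 cells the picture was mixed. In Crabp1 cells 5 of 10 members were lower at 1 day and 5 at 7 days (24.5% and 24.2% of genes tested), namely Myh11, Des, Pln, Myl9 and Lmod1, while 1 was higher, Acta1 (24.7% and 24.6%). Pln passed the minimum through the Rrad-Pcp4l1 cells only and Acta1 through the Crabp1 cells only, so neither call supports a direction. Acta2, Tagln, Actg2 and Cnn1 were within 2-fold at both ages. Against bladder fibroblast-like cells, 8 of 8 measured members were higher in Spp1-Gzme cells and 8 of 8 in Tnfsf15-Aldh1a3 cells at 1 day (20.9% and 18.3% of genes tested), and 7 of 8 in Mmp3-Igf1 cells (16.8%), where Des was lower (log2 -1.10, with 16.3% of genes called lower). At 7 days the same counts were 8 of 8, 8 of 8 and 7 of 8 (20.8%, 16.6% and 14.3%). Of the 8 measured members 4 passed the minimum through the assembloid cells only, so these counts describe the members and support no direction. In 1-day Mmp3-Igf1 cells Des passed the minimum through the bladder cells only, so its call supports no direction.

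**Figure D4:**
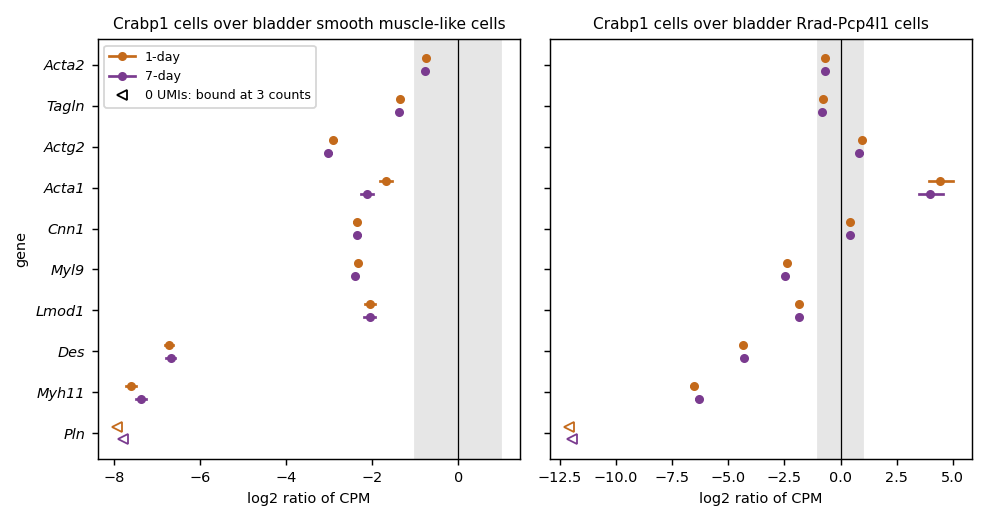
Log2 ratio of CPM of each gene in Crabp1 cells of 1-day and 7-day assembloids over bladder smooth muscle-like cells (left) and over bladder Rrad-Pcp4l1 cells (right), with 95% exact intervals of counting error; the grey band marks under 2-fold, and open triangles mark Pln at its bound from 3 counts. Acta2 lies in the band on both sides, and Des and Myh11 lie below -4 on both.

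Within bladder, 10 of 10 members were higher in smooth muscle-like than in pericyte-like cells, where 13.3% of genes tested were called higher. Acta1 and Pln passed the minimum through the smooth muscle-like cells only. Pln, at 39.2 against 19.7 CPM, reached 2-fold only with the 0.5 counts that the log2 ratio adds, so 9 of 10 were higher without it. The log2 ratios ran from 1.00 [0.20 to 1.77] for Pln, counted from 26 and 34 UMIs, to 4.56 [4.41 to 4.72] for Actg2 among members found in both populations, and Acta1 was at 0 UMIs in the pericyte-like cells. Myh11 differed by 2.67 [2.59 to 2.75]. The Rrad-Pcp4l1 cells were higher than the pericyte-like cells in 7 of 9 measured members (8.68% of genes tested), and Actg2 and Des were within 2-fold. Here Pln passed the minimum through the Rrad-Pcp4l1 cells only, so its call supports no direction.

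Pericyte-like cells of the assembloid cluster at 7 days had 3 of 8 measured members higher than bladder pericyte-like cells, where 17.9% of genes tested were called higher. These were Acta2 at a log2 ratio of 2.15 [2.11 to 2.19], Actg2 at 3.44 [3.28 to 3.60] and Cnn1 at 2.38 [2.19 to 2.57]. Tagln (0.98), Myl9 (0.70), Des (0.80), Lmod1 (0.57) and Myh11 (-0.23) were within 2-fold, and Pln, at 3 UMIs, was under the minimum in both. Against bladder smooth muscle-like cells the same 7-day cells had 8 of 10 members lower, where 17.9% of genes tested were called lower, with Acta2 (0.31) and Myl9 (-0.97) within 2-fold. Acta1 and Pln passed the minimum through the bladder cells only, so their calls support no direction. None of the 76 cells lay on the bladder side of the 7-day library. Most of their pericyte markers stood under those of bladder pericyte-like cells, as with Rgs5 at 236 against 3074 CPM.

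Between 7 days and 1 day the members of Crabp1 cells hardly differed. None of 9 measured members was called in either direction, where 0.0751% of genes tested were, so the count is that of most genes. The log2 ratios of 7-day over 1-day Crabp1 cells ran from -0.44 [-0.50 to -0.37] for Acta1 to 0.24 [0.08 to 0.39] for Myh11. Des, at 0.04 [-0.08 to 0.17], was the one member that passed 2-fold under other settings, in opposite directions: -1.15 with coarser clusters, -1.08 with doublets kept and 1.60 with cells gated one by one. In Spp1-Gzme cells Acta1 alone was called, lower at -1.25 [-1.44 to -1.07] (0.0188% of genes tested), from 21.8 CPM at 7 days and 52.0 CPM at 1 day. Tnfsf15-Aldh1a3 cells had 0 of 8 measured members called (0.851% either way), with Cnn1 at -0.92 and Myh11 at 0.32 as the extremes. Cycling stromal cells, pooled over their clusters, had 0 of 9 (0.469%). In the Ube2c-led cluster Cnn1 was 321 CPM at 7 days against 654 CPM at 1 day, past 2-fold. In the Birc5-led cluster it was 552 CPM at 7 days against 508 CPM at 1 day.

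In the Mmp3-Igf1 cells 2 of 7 measured members were lower at 7 days, where 0.428% of genes tested were called lower. Cnn1 stood at 235 CPM at 7 days, against 590.0 CPM at 1 day, a log2 ratio of -1.33 [-1.40 to -1.25]. Myh11 stood at 109 CPM at 7 days, against 239 CPM at 1 day, a log2 ratio of -1.13 [-1.25 to -1.01]. Acta2, Tagln, Actg2, Myl9 and Lmod1 had ratios between -0.91 and -0.46, each within 2-fold. The 7-day cells were deeper, with a median of 18612.5 against 13882 UMIs, and the fibroblast markers of these cells summed to 19833 CPM at 7 days and 16461 CPM at 1 day, whose part in the result was not tested.

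**Figure D5:**
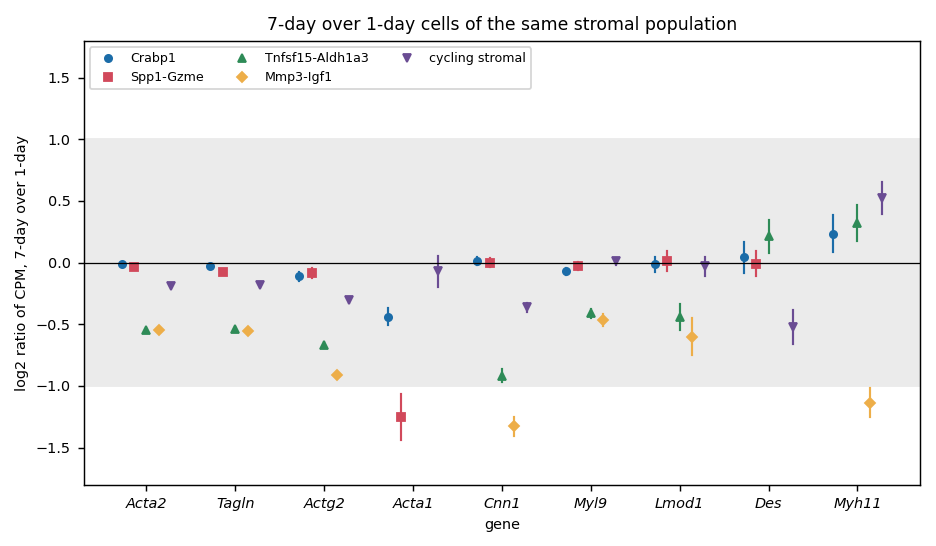
Log2 ratio of CPM of 7-day over 1-day cells for each gene that reached 20 CPM, by stromal subset, with 95% exact intervals of counting error and a grey band for under 2-fold. Crabp1 and Spp1-Gzme points lie near 0 except for Acta1, and the Mmp3-Igf1 points of Cnn1 and Myh11 lie below -1 while Myh11 is above 0 in 3 other subsets.

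Taken over all stromal and mural cells, the 1-day library had 1 member higher than bladder, Actg2 at 1.94 [1.90 to 1.98], and 3 lower, Myh11 at -4.78 [-4.83 to -4.73], Des at -3.36 and Pln at -11.45 (17.1% of genes tested were called higher and 22% lower). The 7-day library had the same 4 members called over bladder, Actg2 at 1.56, Myh11 at -3.47, Des at -2.95 and Pln at -4.71 (15.4% and 19.5%). Without the bladder-side cells these were 1.59, -4.12, -3.34 and -7.85 (16.2% and 20.1%). The late genes of the 7-day library thus lay farther under bladder when cells near bladder were left out. In each of these comparisons with bladder, Pln passed the minimum through the bladder cells only, so its call supports no direction. Over 1-day assembloids, Myh11 was the 1 member called at 7 days, higher at 1.32 [1.26 to 1.37], where 1.74% of genes tested were called higher. Without the bladder-side cells it was 0.67 [0.61 to 0.72], within 2-fold, and 0 members were called (0.917% of genes either way).

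In the mural populations that the 7-day library had in common with bladder no member passed 2-fold. Whether these cells were part of the assembloids or came from the bladder sample cannot be told apart, so these need not be comparisons of assembloid with bladder. In Rrad-Pcp4l1 cells, 290 of 307 7-day cells lay on the bladder side, and 0 of 9 measured members were called against bladder (1.82% of genes tested either way), with ratios between -0.10 for Pln and 0.18 for Cnn1. In the bladder pericyte-like cluster 198 of 262 lay there, and 0 of 8 were called (3.76%), with Cnn1 at 0.94 the farthest from 0. In the 2 clusters of fibroblast-like cells 572 of 583 and 125 of 126 lay there, and 4 of 6 measured members were higher at 7 days (0.157% of genes tested), Acta2 at 362 CPM at 7 days against 74.1 CPM in bladder, and Tagln at 259 CPM against 77.3 CPM, with Actg2 and Cnn1. Actg2 and Cnn1 passed the minimum through the 7-day cells only, so their calls support no direction. In the stromal cells led by Car3 and Rbp4, of which 97 of 98 lay there, 1 of 5 measured members was higher at 7 days, Actg2 at 1.49 [0.70 to 2.27] from 27 and 33 UMIs (2.96% of genes tested). Acta2 in urothelial cells of the same libraries was 116 CPM at 7 days (mostly bladder-side cells) and 6.0 CPM in bladder, and its part in the fibroblast-like difference was not tested.

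Further genes of contraction were counted from a list of 26 in 3 groups. Between 1-day Crabp1 and bladder smooth muscle-like cells 18 of 23 measured genes were lower and 0 higher (21.8% and 21.6% of all genes tested), with a median log2 ratio of -2.37, and at 7 days 17 were lower and 1 higher (21.2% and 21.5%), with a median of -2.38. Of the 23 genes 7 passed the minimum through the bladder cells only and 1 through the Crabp1 cells only, so these counts describe the list and support no direction. Of 13 filament and kinase genes 9 were lower at 1 day. Mylk, myosin light chain kinase, was one of the markers that named the smooth muscle-like cells, so its level supports nothing, and without it 17 of 22 were lower at 1 day. It was 45.5 CPM in 1-day and 46.7 CPM in 7-day Crabp1 cells, against 5430 CPM in bladder smooth muscle-like cells. Ppp1r12b, a subunit of the myosin phosphatase, was 12 CPM and 13 CPM, against 442 CPM, and Csrp1 was lower at a log2 ratio of -2.88 at 1 day.

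Of 6 measured calcium handling genes, 6 were lower at both ages, and 5 of these had passed the minimum through the bladder cells only. P2rx1, an ATP-gated channel through which parasympathetic nerves contract the bladder, was at 0 UMIs in 1-day and 2 UMIs in 7-day Crabp1 cells, against 345 CPM in bladder smooth muscle-like cells. Casq2, a calcium store protein, was at 0 UMIs in both, against 63.3 CPM, Kcnma1, a calcium-activated potassium channel, at 1 and 2 UMIs, against 66.3 CPM, and Itpr1, a store release channel, at 7.3 CPM and 8.6 CPM, against 94.9 CPM. Of 4 measured transcription factors 3 were lower. Myocd, encoding myocardin, was 0.70 CPM in 1-day and 0.65 CPM in 7-day Crabp1 cells, against 99.5 CPM in bladder smooth muscle-like cells, from 13 and 11 UMIs. Srf was lower at -1.61 and -1.64, and Klf4, a repressor of muscle genes, at -2.19 and -2.17. Mkl1, another partner of serum response factor, stood at 22.5 CPM and 23.3 CPM, against 10.6 CPM from 7 UMIs, a log2 ratio of 1.00 [0.04 to 2.42] at 1 day and 1.05 [0.09 to 2.47] at 7 days, on either side of the 2-fold mark.

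In the 7-day pericyte-like cells of the assembloid cluster, 9 of 23 measured genes of this list were higher and 2 lower than in bladder pericyte-like cells (17.9% and 21.9% of genes tested). Actn1 (alpha-actinin, 2.66), Tpm1 (tropomyosin, 1.52), Nexn (1.49), Csrp1 (1.36) and P2rx1 (5.66, from 92 and 3 UMIs) were among the higher and Klf4 (-4.36) and Itpr1 (-1.09) were the lower. Bladder smooth muscle-like cells were higher than bladder pericyte-like cells in 14 of 24 and lower in 1, Klf4 (13.3% and 20.8% of genes tested), with Myocd at 99.5 against 20.8 CPM and P2rx1 at 345 against 1.7 CPM. In both comparisons P2rx1 reached the minimum in the higher population only, so its calls support no direction.

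Genes whose level followed the members were sought among 9985 genes over the 31 populations of at least 50 cells, by Pearson r of log2 of CPM plus 1. The populations share 3 libraries and free RNA, so r is a description. Closest to Acta2 were Tpm1 (0.952), Actn1 (0.935), Nexn (0.929), Flna (0.923) and Tpm2 (0.917), which encode actin filament proteins. Closest to Myh11 were Synpo2 (0.940), a naming marker, Pbxip1 (0.929), Sh3bgr (0.912), Mrvi1 (0.893) and Myocd (0.889). Between the members, Acta2 had an r of 0.942 with Cnn1, 0.927 with Lmod1, 0.910 with Myl9, 0.909 with Actg2, 0.695 with Des, 0.626 with Myh11, 0.613 with Acta1 and 0.341 with Pln. The members that followed Myh11 best were Lmod1 (0.819), Myl9 (0.800) and Pln (0.786), and Acta1 followed it least (0.253).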

How the data were processed

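Cells of 1-day assembloids, 7-day assembloids and bladder were profiled by droplet capture (10x Genomics 3′ chemistry, version 3), per the labels' protocols. Each deposited matrix holds whole-number UMI counts, not normalized, from Cell Ranger 3.1.0 per the file headers, over human GRCh38 and mouse mm10 genes per the submitters' processing notes. No source used here gives the cell calling settings.

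Mouse cells had at least 90% mouse UMIs, 500 genes, under 20% mitochondrial UMIs and no Scrublet doublet call (280, 202 and 238 removed at 1 day, 7 days and in bladder; scanpy 1.11.5). Of a barcode shared among kept cells the shallower copy was left out (19, 26 and 22 cells). Leiden clustering (leidenalg 0.10.2, resolution 1, 15 neighbours, 30 components, 2000 variable genes less the 10 members) gave 33 clusters. A marker counted where 25% of a cluster's cells held it and its CPM, with 5 added, was at least 2-fold that of other cells. A class name needed at least 3 markers and 1 among the 10 leading genes, with no more from another class. A 7-day cell lay on the bladder side where at least 95% of its 30 nearest cells of the other libraries were bladder cells, and on the assembloid side where at most 5% were.

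Counts were summed per population and library and scaled to CPM. Log2 ratios had 0.5 counts added to each sum, intervals are 95% and exact (Poisson, its conditional form for ratios, Clopper-Pearson for shares), and populations under 50 cells are not given. The ratio calculation was tested on simulated data. No p-value was computed, because 1 library a group leaves no degrees of freedom and cells are not replicates. Named genes were the members, up to 4 genes per group of other contractile genes by size of log2 ratio with 20 CPM, and the 5 genes most like Acta2 and Myh11; Ckm, Actc1 and the mesothelial cells were singled out after their values were seen. One gene that this rule names is not reported here. The members and lists were chosen with earlier results of these data known. In GENCODE vM21 transcripts, 0 of 451 words of 50 bases in the last 500 bases of each member occurred in another gene. Python 3.11.15, numpy 2.4.6, scipy 1.17.1 and matplotlib 3.10.9 were used. Alternatives were other treatments of shared barcodes, gene sets, resolutions, cell filters, gates, denominators and minimum levels.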

Additional observations from a re-analysis of the deposited data

Results flagged for a closer look

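Myh11 moved in opposite directions between 7 days and 1 day in different stromal subsets. The log2 ratio of 7-day over 1-day cells was -1.13 in Mmp3-Igf1 cells, whereas it was 0.24 in Crabp1 cells, 0.32 in Tnfsf15-Aldh1a3 cells and 0.52 in cycling stromal cells. With 1 library at each age the difference between subsets was not tested.

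Human transcripts formed a signal outside the mouse measurement. Barcodes with at least 90% human UMIs and 500 genes numbered 115 at 1 day, 74 at 7 days and 0 in bladder. Among their human UMIs, TAGLN stood at 350 CPM at 1 day and 327 CPM at 7 days, and MYL9 at 96.4 CPM and 103 CPM. ACTA2 stood at 8.63 and 10.9 CPM, MYH11 had 1 and 0 UMIs, and PLN had 0 in both.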

How the results depend on the processing

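In 12 settings, 8 or 9 of 10 members were lower in 1-day and in 7-day Crabp1 cells than in bladder smooth muscle-like cells, and each member's 1-day log2 ratio was negative in all 12. The early to late ratio of 1-day Crabp1 cells minus that of bladder smooth muscle-like cells, 6.56 on the log2 scale, was 6.93 with cells gated one by one, 7.71 at resolution 0.5 and 7.77 with doublets kept. The 7-day minus 1-day difference of Crabp1 cells in that ratio, -0.25, was -0.48 when gated and -0.0092 with doublets kept. The count of members called between 7-day and 1-day Crabp1 cells, 0, was 1 (Des) when gated, 1 (Des) at resolution 0.5 and 1 (Des) with doublets kept. Over all stromal and mural cells the 7-day over 1-day ratio of Myh11, 1.32, was 1.06 with at least 1000 genes and under 10% mitochondrial UMIs, 2.93 as a mean of CPM per cell (3 members called: Myh11, Des and Pln) and 0.67 with bladder-side cells left out (0 called). The cause of each shift was not tested. The largest ranges of a member's 1-day ratio over bladder smooth muscle-like cells were those of Lmod1, -3.55 to -1.96, and Actg2, -3.12 to -1.62, beside Pln, which had 0 UMIs in 1-day Crabp1 cells.

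The stricter cell filter left under 50 bladder smooth muscle-like cells and gave no value for them, and gating gave no value over all stromal cells. Gating took 320 bladder muscle cells, against 71 in the cluster, so gated values rest on another reference set. Leaving out the shallower Crabp1 cluster and the bladder-side cells was chosen after seeing the data. No paired analysis was possible because each group was 1 library. Bladder smooth muscle-like cells were few (71), and Pln there rests on 26 UMIs. Other contractile genes lower in 1-day Crabp1 cells numbered 13 to 19 in 3 settings.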

Other observations

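Mesothelial cells of the 1-day assembloids had early genes almost without late ones. In these 161 cells Acta2 stood at 4522 CPM and Tagln at 5729 CPM, against 702 CPM and 790 CPM in 50 bladder mesothelial cells, while 6 Myh11 UMIs and 0 Pln UMIs were found at 1 day. The early to late ratio was 6317 [2902 to 17214] at 1 day and 17.7 [13.4 to 23.7] in bladder. All 161 1-day cells lay in a cluster led by Slpi and Tmem108. Of the 50 bladder cells, 49 lay in another cluster, led by Slpi and C3, so unlike mesothelial clusters were compared. In endothelial cells Acta2 stood at 664 CPM at 1 day, 683 CPM at 7 days and 117 CPM in bladder, beside 362, 116 (mostly bladder-side cells) and 6.0 CPM in urothelial cells. The bladder value rests on 273 cells of a cluster led by Cytl1, with 177 7-day cells, 173 of them on the bladder side. The 1-day cells and 306 7-day cells lay in a cluster led by Apln without bladder cells, so the values compare unlike clusters. Other clusters with 7 or 8 endothelial markers got no class name and were left out.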
